A study of Mus musculus with 2 samples.

Results

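The cytosolic ribosomal protein genes were described across the cell classes and cultures of mouse distal small intestinal organoids. A gene belonged to the family when its symbol was Rpl or Rps followed by a number and at most 1 letter from a, l, x and y, or was Rplp0, Rplp1, Rplp2 or Rpsa. This rule found 80 of 22253 genes, 49 of the large and 31 of the small ribosomal subunit. It leaves out the Rps6k kinases and the pseudogenes, and it also leaves out a few ribosomal protein genes with other names (such as Fau, Rps3a1 and Rack1), which are treated separately. No measured value entered the rule.

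Each cytosolic ribosome joins a small subunit, which reads the mRNA, to a large subunit, which forms the peptide bond. A ribosome carries about equal numbers of most of its proteins. Their mRNAs form one of the most abundant groups in dividing cells. Many of them start with a C followed by a run of pyrimidines, the terminal oligopyrimidine (TOP) motif, through which mTORC1 controls their translation. In the intestinal crypt, stem cells and their cycling progeny divide continuously, while enterocytes, goblet, Paneth and enteroendocrine cells (the hormone-secreting cells) have left the cycle.

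The study compared 2 control cultures with 3 Etv1 mutant cultures, where Etv1 encodes a transcription factor of the ETS family. Cells of each culture were sorted, tagged with 1 of 5 hashtag oligos, pooled and sequenced as 1 RNA library and 1 hashtag library. Both genotypes carried the reporters Neurog3-RFP and Gcg-Venus, which mark enteroendocrine progenitors and glucagon-gene-expressing cells. The kind of Etv1 mutation, the sort gate, the mouse strain and the age of the animals are not given in the sources used here. The labels call the 5 cultures biological replicates.

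After hashtag assignment and quality filters, 1432 of 3409 barcodes were analysed, 197 to 349 per culture. Summed counts per culture ran from 4193197 to 7254380, and the median cell of a culture held 20842 to 24126 counts. All 3409 barcodes are shared by both libraries, as the design requires. Etv1 itself had only 142 counts: over all cells it stood at 6.20 and 6.28 CPM (counts per 1000000 counts) in control cells, above each of the mutant values of 3.21, 3.06 and 3.10 CPM. Of these counts 135 lay in the enteroendocrine-like cells named in the next paragraph, where the control values of 203 and 271 CPM and the mutant values of 167, 205 and 146 CPM overlap. Stem-like cells held 2 Etv1 counts and cycling-like cells 1, too few to check the genotype there. The cells were epithelial by their markers. Of the 5 mesenchymal markers, 4 (Col1a1, Col1a2, Col3a1 and Pdgfra) had no count, as had the immune markers Cd3e and Laptm5 and the endothelial marker Cdh5. The remaining markers of these lists summed to 74 mesenchymal, 44.6 immune and 3 endothelial counts, and the mesenchymal list reached up to 170 CPM in the enteroendocrine-like cells of a culture.

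Clustering without the 80 members gave 13 clusters. From their markers, 7 of them were named as 6 classes: stem-like (232 cells), cycling-like (a pair of clusters, 305 cells together), goblet/Paneth-like (86), enterocyte-like (96), enteroendocrine-like (55) and tuft-like (9 cells, not tested). The other 6 clusters stayed unnamed. Since the clusters were made without the members, the levels of the members between classes did not define them.

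Sequence at the start of the transcript was available for 60 of the 80 members (RefSeq promoters, GRCm38.p6). The 8 windows printed here run from 15 bases before to 15 bases after the annotated start, 5′ to 3′ on the gene's strand, and capitals mark the longest run that begins with C and goes on with C or T. They show members that changed by class to different extents: Rps6, Rplp2 and Rps27, whose run spans the start, Rps27l, the paralog of Rps27, and Rps2, Rpl12, Rpsa and Rpl41, whose run is shorter.
Rps6: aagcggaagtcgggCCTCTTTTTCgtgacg
Rplp2: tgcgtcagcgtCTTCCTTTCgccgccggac
Rps27: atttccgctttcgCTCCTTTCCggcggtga
Rps27l: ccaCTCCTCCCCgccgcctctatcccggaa
Rps2: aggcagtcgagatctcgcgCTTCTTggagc
Rpl12: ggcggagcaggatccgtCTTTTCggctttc
Rpsa: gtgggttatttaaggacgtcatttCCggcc
Rpl41: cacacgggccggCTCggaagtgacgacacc

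The windows lie at chr4:86857353-86857382 (Rps6, minus strand), chr7:141447636-141447665 (Rplp2, plus), chr3:90213634-90213663 (Rps27, minus), chr9:66946071-66946100 (Rps27l, plus), chr17:24720048-24720077 (Rps2, plus), chr2:32961697-32961726 (Rpl12, plus), chr9:120127751-120127780 (Rpsa, plus) and chr10:128549154-128549183 (Rpl41, minus). The starts are those of RefSeq. The nearest start in the GENCODE annotation of the same build lay 0 bases (Rps27l) to 281 bases (Rplp2) away, so some windows lie inside the gene as GENCODE draws it. In this 30-base window a run of at least 7 such bases was found in 27 of the 60 members (45.0%) and in 14.3% of all 16519 promoters in the table. A run of at least 5 such bases read from the first annotated base, which is C, was present in 12 of the 60 members and in 2.14% of all promoters. The core CCGGAAG, searched on both strands over 300 bases as a motif of the ETS family to which Etv1 belongs, was present in 24 members (40.0%), in 12.4% of all promoters and in 20.3% of the promoters of genes tested here. A match describes letters only, and an annotated start can lie some bases away from the start used in these cells.

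Nearly every cell held nearly every member. Of the 80 genes, 77 were counted in over 90% of the cells, and the median member stood at 3678 CPM. Per kilobase of annotated transcript, Rpl41, which encodes a very short basic peptide of the large subunit, was highest at 12845 CPM per kb, and the stalk gene Rplp1 was also among the highest (9842). The lowest of the members in most cells were Rps15a at 710 CPM per kb, whose annotated transcript of 5179 bases lowers this value, and the large-subunit gene Rpl4 at 796. The paralogs that textbooks place in muscle (Rpl3l) and testis (Rpl10l, Rpl39l) were all but absent: Rpl3l and Rpl10l had no count among 31225225, which allows up to 0.0961 CPM each, and Rpl39l had 1 count in 1 cell, 0.0398 CPM per kb. Their parents Rpl3, Rpl10 and Rpl39 stood at 3042, 2150 and 3454 CPM.

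Not all members were counted equally well. The table holds estimated counts, and for 7 members over 10% of the summed counts lay in values that were not whole. Such values can arise when reads are split between near-identical genes or pseudogenes. These members were Rps18 (99.6%), Rpl21 (96.0%), Rps27 (72.7%), Rpl10 (67.3%), Rplp2 (56.7%), Rpl13a (26.2%) and Rpl9 (24.2%). Their levels are therefore uncertain.

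The family took 28.4% ± 1.14 (SD, n = 5 cultures) of all counts, and this share depended strongly on the cell class. By culture, in the order control 1, control 2, mutant 1, mutant 2 and mutant 3, stem-like cells gave it 33.3, 33.2, 30.7, 32.1 and 32.2% of their counts. Enterocyte-like cells gave 18.5, 19.2, 19.8, 18.2 and 17.4%, and enteroendocrine-like cells 21.0, 19.9, 25.3, 20.7 and 22.3%. Neither of these classes overlapped with stem-like cells in any culture.

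Cycling-like cells came close below the stem-like cells, with 29.3, 30.04, 29.0, 29.3 and 30.3%. Goblet/Paneth-like cells had 24.2, 28.4, 27.0, 27.5 and 30.9%. Within cultures, the share was lower than in stem-like cells in 5 of 5 cultures for each of the 4 classes. The mean difference was -2.71 ± 0.970 percentage points (SD, n = 5) in cycling-like, -4.70 ± 2.82 in goblet/Paneth-like, -10.5 ± 3.12 in enteroendocrine-like and -13.7 ± 1.60 in enterocyte-like cells.

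**Figure D1:**
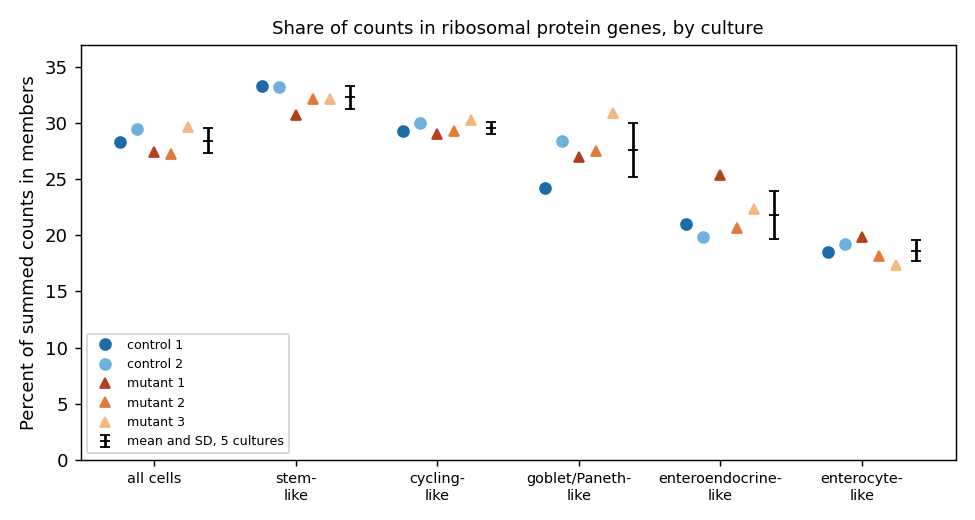
Percent of summed counts in the 80 members (vertical axis) in all cells and in 5 cell classes, 1 point per culture (circles control, triangles mutant), with the mean and SD over 5 cultures. Stem-like cells lie between 30.7 and 33.3%, above every enteroendocrine-like point (19.9 to 25.3%) and every enterocyte-like point (17.4 to 19.8%).

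The classes were also compared at equal depth. With each cell thinned to 3832 counts, which left out 0 to 6 shallower cells of a class, the mean share per cell was 31.9% in stem-like, 29.1% in cycling-like, 27.4% in goblet/Paneth-like, 20.2% in enteroendocrine-like and 17.2% in enterocyte-like cells. In control 2 the thinned enteroendocrine-like cells (17.0%) lay below the enterocyte-like cells (18.1%). Mitochondrially encoded transcripts took 3.59 to 4.72% of the counts on average in these 5 classes. A share is relative: fewer ribosomal protein transcripts and more transcripts of other genes cannot be told apart. The 12 enterocyte markers, for comparison, summed to 12638 to 20747 CPM in the enterocyte-like cells of a culture, and the 10 Paneth markers to 5492 to 121752 CPM in goblet/Paneth-like cells.

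Single cells spread widely within a class. The median cell gave 32.6% of its counts to the family in the stem-like cluster, 29.7 and 29.6% in the cycling-like clusters, 28.0% in goblet/Paneth-like, 18.5% in enterocyte-like, 17.1% in enteroendocrine-like and 16.1% in tuft-like cells, whose mean mitochondrial share was 9.42%. Enteroendocrine-like cells ran from 9.90 to 31.7% (5th to 95th percentile). Among unnamed clusters, cluster 4, whose top 10 genes began with Atf5, Ndrg2 and Stc2 and also held Asns, had the highest median (32.7%). Cluster 6 had the lowest (15.9%), with a median of 5910 counts per cell and 18.39% mitochondrial counts; the part of RNA quality in its low share was not tested.

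**Figure D2:**
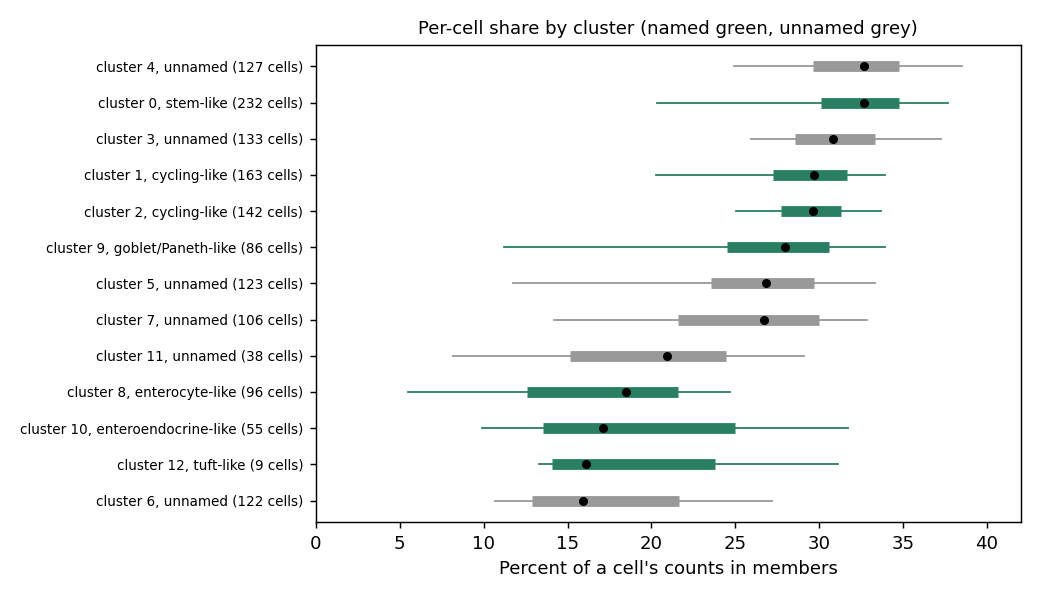
Percent of a cell's counts in the 80 members (horizontal axis) for the 13 clusters, ordered by median; dots are medians, thick bars the middle 50% of cells and thin lines the 5th to 95th percentile. Stem-like cells (median 32.6%) sit near the top, while the enterocyte-like (18.5%), enteroendocrine-like (17.1%), tuft-like (16.1%) and unnamed cluster 6 (15.9%) cells sit at the bottom.

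Both subunits moved together. The ratio of large-subunit to small-subunit counts was 1.347 ± 0.00715 (SD, n = 5) in stem-like, 1.351 ± 0.0117 in cycling-like, 1.377 ± 0.0187 in goblet/Paneth-like, 1.364 ± 0.0416 in enteroendocrine-like and 1.389 ± 0.0277 in enterocyte-like cells. Across cells of 1 class the shares of the subunits were correlated with a Pearson r of 0.97 to 0.99, given as a description because both are parts of the same cell's counts.

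In enterocyte-like cells, 76 of the 77 members that could be tested fell relative to stem-like cells, 46 of 46 of the large and 30 of 31 of the small subunit. Counts were summed per class and culture and compared with the culture as block (edgeR quasi-likelihood test, Benjamini-Hochberg adjusted p under 0.05), and 36.6% of all genes tested were lower in the same comparison. With the TMM scaling factors of this test, the median member changed by -0.63 on the log2 scale, to 64.4% of its stem-like value on that scale. The median of all genes tested was -0.18. With library totals in place of TMM factors these medians were -0.81 and -0.36. CPM values carry no TMM factors. The 77 include every member except Rpl3l, Rpl10l and Rpl39l.

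Rpl3, a large-subunit protein near the centre that forms the peptide bond, had the largest fall. Its levels in stem-like cells were 3893, 3911, 3435, 3688 and 3760 CPM, in the order control 1, control 2, mutant 1, mutant 2 and mutant 3. In enterocyte-like cells they were 1105, 1284, 1290, 1324 and 1098 CPM. These groups lie far apart, and the change was -1.45 (SE 0.08, adjusted p = 2.29e-18, edgeR).

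Other deep falls came from the small subunit. Rps2, which lies at the mRNA entry side, went from 8379, 8496, 8692, 8844 and 8205 CPM in stem-like to 3120, 3545, 3708, 3831 and 3359 CPM in enterocyte-like cells (-1.11, SE 0.07, edgeR adjusted p = 2.27e-17). Rpsa, a small-subunit protein also known as the laminin receptor, went from 6843, 7038, 6423, 6774 and 6704 to 2628, 2914, 3022, 2674 and 2524 CPM (-1.13, SE 0.07, edgeR adjusted p = 7.70e-17). Every enterocyte-like value of both genes lay below every stem-like value. Rps6, the substrate of the S6 kinases downstream of mTORC1, changed by -0.95 (SE 0.08).

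Among the large-subunit structures, every member named here fell, by amounts whose differences were not tested. Of the stalk, which recruits elongation factors, Rplp2 changed by -0.95 (SE 0.08), Rplp1 by -0.54 (SE 0.07) and Rplp0 by -0.46 (SE 0.07); Rplp2 has fractional counts. Rpl12, at the base of the stalk, changed by -1.05 (SE 0.09). Rpl11 and Rpl5, which bind the 5S rRNA and can hold Mdm2 when free, changed by -0.87 and -0.75 (SE 0.08 each). The small-subunit gene Rps27a, made as a fusion with ubiquitin, changed by -0.72 (SE 0.07), Rpl41 by -0.58 (SE 0.07) and Rpl10, which joins the large subunit last, by -0.38 (SE 0.09). All of these passed the edgeR test.

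Weakest among the members that fell was Rps29, with 2796, 2741, 2484, 2815 and 2806 CPM in stem-like and 2057, 2109, 2141, 2131 and 2120 CPM in enterocyte-like cells. Its CPM values did not overlap, yet after scaling its change was only -0.20 (SE 0.08, edgeR adjusted p = 0.0247), and it missed the test under 11 of 14 alternative settings. Rpl9 (-0.32) and Rps27 (-0.34, SE 0.09) were next, both with fractional counts.

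Rps27l, the p53-inducible paralog of Rps27, was the 1 member that did not pass. It stood at 523, 549, 701, 615 and 538 CPM in stem-like and at 539, 560, 532, 570 and 605 CPM in enterocyte-like cells, which overlap (0.11, SE 0.11, edgeR adjusted p = 0.365). With hashtags assigned by MULTIseqDemux, the other algorithm tried, the median member changed by -0.39 rather than -0.63.

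**Figure D3:**
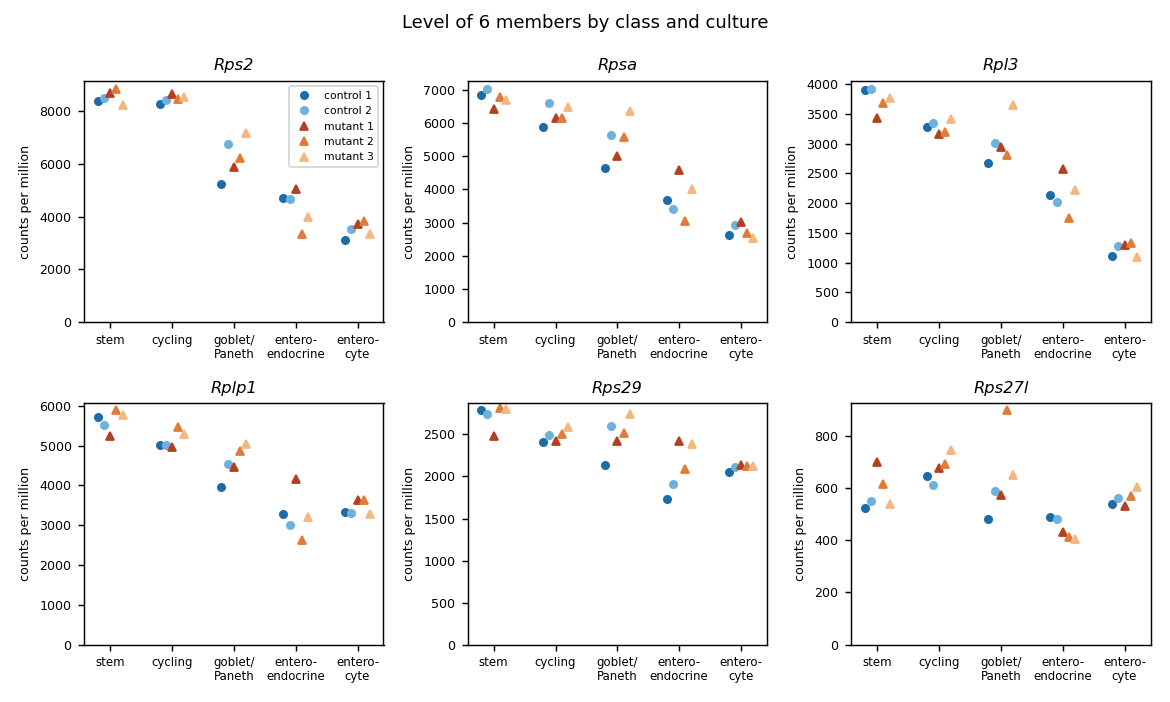
Level in CPM (vertical axes, from 0) of Rps2, Rpsa, Rpl3, Rplp1, Rps29 and Rps27l in 5 classes, 1 point per culture (circles control, triangles mutant). Rpl3 drops from 3435 to 3911 CPM in stem-like to 1098 to 1324 CPM in enterocyte-like cells, while Rps27l overlaps between these classes.

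Enteroendocrine-like cells were lower than stem-like cells for all 77 members tested, where 16.3% of all genes tested were lower by the same test. With TMM factors the median member changed by -0.86, to 55.2% of its stem-like value on that scale, and the median of all genes was 0.04. With library totals these medians were -0.57 and 0.33. Rps2 again led (-1.26, SE 0.15, edgeR adjusted p = 4.07e-07), with 4685, 4678, 5055, 3343 and 3969 CPM in the 5 cultures, each below every stem-like value. Rpl12 (-1.21, SE 0.16), Rpsa (-1.14, SE 0.15) and the large-subunit gene Rpl36a (-1.11, SE 0.16) followed.

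All 3 stalk genes fell, with TMM factors by 1.08 (Rplp1), 0.97 (Rplp2) and 0.83 (Rplp0) on the log2 scale. CPM carry no TMM factors, so in this class they show smaller falls than the log2 changes printed beside them. Rplp1 stood at 5726, 5514, 5236, 5898 and 5769 CPM in stem-like and at 3290, 3001, 4170, 2625 and 3205 CPM in enteroendocrine-like cells, with no overlap. Rpl3 changed by -1.09 (SE 0.15), Rps27 by -0.91 (SE 0.17), Rps6 by -0.89 (SE 0.15), Rps27a by -0.87 (SE 0.15), Rpl11 by -0.84 (SE 0.14), Rpl41 by -0.75 (SE 0.14), Rpl5 by -0.64 (SE 0.15) and Rpl10 by -0.59 (SE 0.15). Smallest were Rps14 (-0.51) and Rpl37a (-0.53).

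Rps27l fell as well (-0.65, SE 0.16, edgeR adjusted p = 0.00194), at 487, 481, 433, 411 and 405 CPM, all below the stem-like values. Only 7 to 17 cells per culture stand behind these sums. The 13 enteroendocrine markers summed to 7466 to 44455 CPM in them, and markers of other classes were also counted. The 10 Paneth markers summed to 2474 to 8129 CPM and the 12 enterocyte markers to 1461 to 6561 CPM. The 8 goblet markers summed to 685 to 2527 CPM and the 8 stem markers to 468 to 1838 CPM. The part of these other markers in the result was not tested. With library totals in place of TMM factors, which raises the median of all genes from 0.04 to 0.33, the median member changed by -0.57. Then 67 members passed, and 605 of all 6651 genes were lower. With whole values only, 75 members were lower (1040 of all 6529 genes). The 1 higher (1028 of all genes) was Rps18, which then keeps few of its counts.

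Enteroendocrine-like and enterocyte-like cells were also compared with each other. With TMM factors, 21 members were lower in enteroendocrine-like than in enterocyte-like cells (29.2% of all genes tested) and 1 was higher (31.1% of all genes), with a median of -0.21, against 0.11 for all genes. Library totals shifted all genes upward alike: the median of the members was then 0.31 and that of all genes 0.62, and 41 of 77 members and 2177 of 4518 genes were higher. Under both scalings the median of the members lay below that of all genes, while its sign followed the scaling, so no order of the levels between these classes is drawn.

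In goblet/Paneth-like cells few members passed the test against stem-like cells. Of the 77 members, 10 fell and none rose (8.11% of all genes tested were lower), and the median member changed by -0.11, against -0.03 for all genes. They included Rps2 (-0.34, SE 0.07, edgeR adjusted p = 0.00143), Rpl23a, Rps26, Rpl36, Rpl12, Rpl15, Rps12, Rps20 and Rpsa. Rpl23a, which lies at the exit of the peptide tunnel, changed by -0.35, and Rps26, at the mRNA exit side, by -0.29 (SE 0.08).

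Stalk and 5S-binding genes did not pass: Rplp0 changed by -0.03, Rplp1 by -0.18, Rpl5 by -0.02 and Rpl11 by -0.12. The count changed with single cultures. It was 1 without control 1 (378 of all 6876 genes were lower), without control 2 (317 of 6135) or without mutant 2 (391 of 6710). It was 4 without mutant 1 (403 of 6980) and 16 without mutant 3 (467 of 6748). DESeq2 called 3 (256 of all 6994 genes were lower), and the median was -0.19 with MULTIseqDemux. Library totals gave 24 with a median of -0.23, while the median of all genes moved from -0.03 to -0.15. Of all 6994 genes, 848 were then lower, against 567 with TMM factors.

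In cycling-like cells 31 members were lower than in stem-like cells and 1 was higher, where 15.1% of all genes tested were lower and 17.6% higher. The median was -0.10, against -0.01 for all genes, so the changes were small. The largest falls were Rps9 (-0.23, SE 0.04, edgeR adjusted p = 4.59e-05), Rps28 (-0.22), Rpl10 (-0.22) and Rps21 (-0.19). Rps9, near the mRNA entry, stood at 5290, 5297, 4775, 5029 and 5288 CPM in stem-like and at 4263, 4372, 4073, 4237 and 4515 CPM in cycling-like cells, with no overlap. When only whole values were counted, Rpl10 changed by 0.01, so its direction rests on fractional counts.

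Rps27l was the member that rose, by 0.23 (SE 0.06, edgeR adjusted p = 0.00584), from 523, 549, 701, 615 and 538 to 646, 612, 676, 692 and 745 CPM. It was higher in 4 of 5 cultures, the groups overlap, and the call was lost in 5 of 15 alternatives, among them leaving out control 1 (0.19) or mutant 3 (0.15). Rps2 (0.02), Rps6 (0.04) and Rpl41 (-0.03) did not pass. The count of 31 fell to 19 without control 2 (1102 of all 8333 genes were lower) and to 18 without mutant 2 (1030 of 8503). It fell to 12 with DESeq2 (513 of 8615) and rose to 62 with MULTIseqDemux (1193 of 9028).

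**Figure D4:**
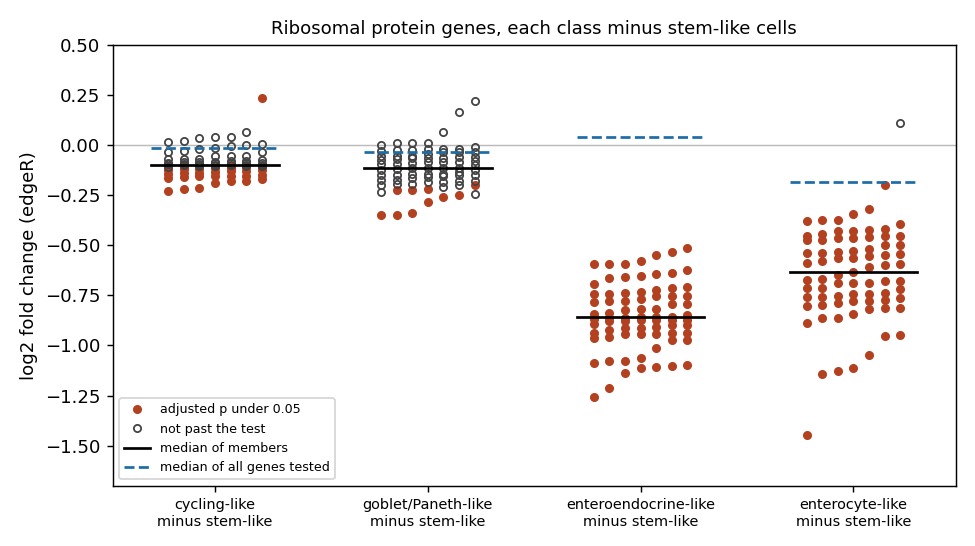
log2 fold change (vertical axis, edgeR) of the 77 tested members in 4 classes against stem-like cells; filled points passed an adjusted p of 0.05, open points did not, the solid line is the median of the members and the dashed line that of all genes tested. Medians are -0.10 in cycling-like, -0.11 in goblet/Paneth-like, -0.86 in enteroendocrine-like and -0.63 in enterocyte-like cells.

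The size of a member's fall had a weak relation to the length of its transcript. Spearman's rho was -0.22 in enterocyte-like and -0.11 in enteroendocrine-like cells over 77 genes that share the same libraries, given as a description. Members with a pyrimidine run of at least 7 bases had a median change of -0.68 (26 genes) in enterocyte-like cells, against -0.61 for the 31 tested members without one. In enteroendocrine-like cells these medians were -0.88 and -0.83. The printed windows went both ways. Rps27, whose run spans the start, changed by -0.34 in enterocyte-like cells, with 72.7% of its counts fractional. Rps6 and Rplp2, whose runs also span the start, fell more than Rps27. Rpsa, whose longest run has 2 bases, changed by -1.13, while Rpl41, with a run of 3 bases, fell less than Rps6, Rplp2 and Rpsa.

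Other genes of the translation machinery mostly fell with the family in enterocyte-like cells, and 1 ribosomal protein gene outside the rule went the other way. Fau, which encodes a ubiquitin-like protein fused to a small-subunit protein, stood at 5556, 5523, 5088, 5072 and 5417 CPM in stem-like and at 7991, 8583, 7694, 6456 and 7060 CPM in enterocyte-like cells. All enterocyte-like values are the higher ones, and the rise was 0.67 (SE 0.07, edgeR adjusted p = 5.74e-11), between 0.43 and 0.77 under the alternatives. In enteroendocrine-like cells Fau changed by -0.51 (SE 0.14, edgeR adjusted p = 0.00748).

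Of the 7 related ribosomal genes outside the rule, 5 fell in enterocyte-like cells, where 36.6% of all genes were lower. Rps3a1 of the small subunit changed by -0.70 (SE 0.07) and Rack1, a scaffold on the small subunit, by -0.75 (SE 0.08). In enteroendocrine-like cells 6 of the 7 were lower (16.3% of all genes).

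Ribosome biogenesis factors, which make and assemble the subunits in the nucleolus, also fell in enterocyte-like cells. There 36 of 39 were lower (36.6% of all genes) and 1 higher, with a median of -2.06: nucleophosmin Npm1 changed by -2.37, nucleolin Ncl by -2.88, Nop56 by -3.54 and fibrillarin Fbl by -2.44. In enteroendocrine-like cells 21 of 36 were lower (16.3% of all genes, list median -0.98), and in goblet/Paneth-like cells 13 of 38 (8.11% of all genes, list median -0.46). In cycling-like cells none was lower (15.1% of all genes) and 10 of 39 were higher (17.6% of all genes), among them Nhp2 (0.52). The lists were chosen with earlier results of these data known.

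Of the translation elongation and initiation factors, 24 of 35 were lower and 4 higher in enterocyte-like cells (median -0.67), where 36.6% of all genes were lower. The poly(A)-binding protein Pabpc1 changed by -1.50 and the start codon factor Eif1 by 0.85. In enteroendocrine-like cells 19 were lower (16.3% of all genes) and 1 higher. The mitochondrial ribosomal proteins, which come from a separate set of genes, stayed near the background in enterocyte-like cells: 23 of 77 were lower, where 36.6% of all genes were, and 8 were higher, with a median of -0.22 against -0.18 for all genes. In enteroendocrine-like cells 34 of 76 were lower (16.3% of all genes) and 0 higher, with a median of -0.63 against 0.04 for all genes. In cycling-like cells 45 were higher (17.6% of all genes) and none lower, with Mrpl51 at 0.84.

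Among regulators, Myc, which drives ribosomal protein transcription, stood at 98.0, 94.0, 108, 92.3 and 90.3 CPM in stem-like cells and between 0 and 17.9 CPM in enterocyte-like cells (-4.38, SE 0.37, edgeR adjusted p = 1.79e-13). Eif4ebp1, the translation repressor that mTORC1 switches off, was higher in enterocyte-like (1.25) and cycling-like cells (1.29). Over the list of mTORC1 and TOP regulators, 6 of 11 were lower (36.6% of all genes) and 2 higher in enterocyte-like cells. Of the p53 axis, 4 of 8 tested genes were lower (36.6% of all genes) and 1 higher in enterocyte-like cells. The list median was -0.55, against -0.18 for all genes. The 1 higher gene was Cdkn1a, the cell cycle inhibitor induced by p53, at 4.68 (SE 0.19). Cdkn1a also rose by 3.42 in enteroendocrine-like, 2.65 in goblet/Paneth-like and 1.08 in cycling-like cells. Trp53 changed by -3.08 in enterocyte-like cells.

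No member passed the test for genotype. Over all cells, 0 of the 77 members passed the edgeR quasi-likelihood test between mutant and control cultures (0.00904% of 11061 genes passed), and DESeq2 called 0. By edgeR 0 members had an unadjusted p under 0.05, where 204 of all genes were lower and 133 higher. The family share was 28.3 and 29.5% in control and 27.4, 27.3 and 29.7% in mutant cultures, which overlap. The difference of -0.791 percentage points had an exact two-sided permutation p of 0.6, where 0.1 is the smallest p that 10 splits of 5 cultures allow. It ran from -1.58 to -0.189 points when single cultures were left out.

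The median change of the members was -0.05 (all genes 0.00), and 71 of 77 lay below 0. It was -0.09 without mutant 3, -0.02 without mutant 1, -0.03 without mutant 2 and -0.09 with MULTIseqDemux. Without mutant 3, 14 members had an unadjusted p under 0.05 by edgeR, all lower. Of all 11007 genes in that run, 282 were lower and 161 higher at that unadjusted p. Rps27l was 609 and 610 CPM in control and 647, 673 and 675 CPM in mutant cultures, with no overlap, but its change of 0.12 (SE 0.07) had an edgeR adjusted p of 0.9997. The other members of smallest p above 0 were Rplp1 (0.02) and Rps2 (0.01), and below 0 Rps14 (-0.08), Rpl38 (-0.08) and Rpl37 (-0.10).

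Within stem-like cells the members were lower in the mutant by a little more, and again none passed (0.0133% of 7533 genes passed). The share was 33.3 and 33.2% in control and 30.7, 32.1 and 32.2% in mutant cultures, so the groups do not overlap. The exact two-sided permutation p of this difference was 0.1, the smallest that 5 cultures allow. The median change was -0.12 (all genes 0.00), and 76 of 77 members lay below 0, as did 3730 of all 7533 genes. By edgeR 27 members had an unadjusted p under 0.05, but none by DESeq2. Of all 7533 genes, 189 were lower and 173 higher at that unadjusted p. The 27 members became 9 without mutant 2 (182 of all 7361 genes were lower at that p) and 35 without mutant 1 (244 of 7676). They became 3 with library totals (124 of 7533). Leaving out control 1 or control 2, which leaves a single control, gave a median change of -0.11 or -0.12. Rpl13 and Rps24 changed by -0.15 each (edgeR adjusted p = 0.924 for both), and Rps27l by 0.17. With library totals the median was -0.08 and 8 members lay above 0. The mean share difference, mutant minus control, was 2.18 points in goblet/Paneth-like and 2.33 in enteroendocrine-like cells. It was -0.43 in enterocyte-like and -0.12 in cycling-like cells, and the groups overlap in each of these classes.

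In cycling-like cells, the largest class, the median change was -0.01 with 19 members above 0, and none passed (0.0108% of 9247 genes passed). Without control 2 the median turned to 0.0043, with 44 members above 0, and without mutant 3 it was -0.03. The lowest p above 0 belonged to Rps27l (0.16), Rplp1 (0.06) and Rpl10 (0.07), and below 0 to Rpl12 (-0.08), Rps14 (-0.06) and Rpl7 (-0.06). Whether the genotype effect differed between enterocyte-like and stem-like cells was tested with an interaction term. It was past the threshold for 0 of 77 members (0% of 7287 genes), and DESeq2 called 0. By edgeR 1 member, Rpl12 (0.39), had an unadjusted p under 0.05, as had 132 of all genes above 0 and 140 below.

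**Figure D5:**
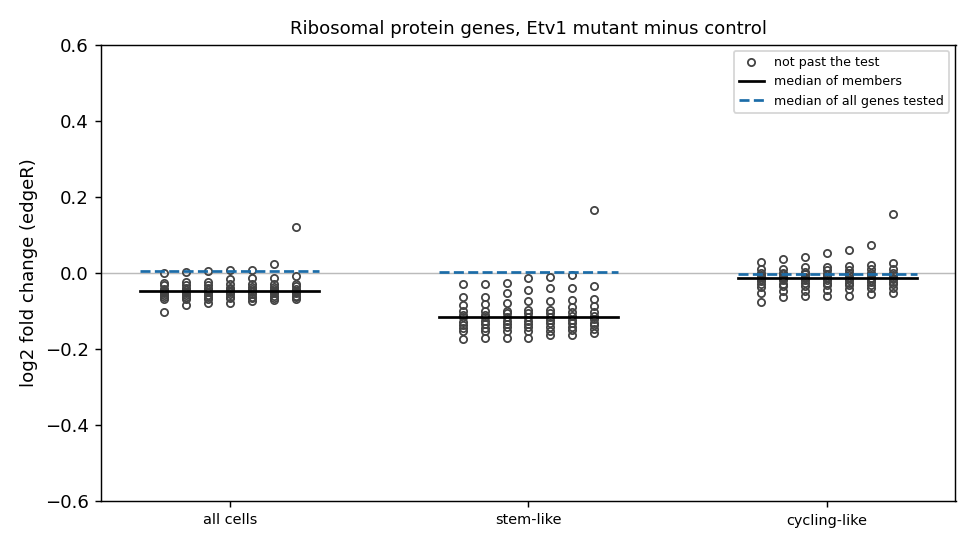
log2 fold change (vertical axis, edgeR) of the 77 tested members, Etv1 mutant minus control, in all cells, stem-like and cycling-like cells; open points did not pass the test, the solid line is the median of the members and the dashed line that of all genes tested. Every point is open; the medians are -0.05, -0.12 and -0.01.

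Members with the ETS core in their promoter had a median genotype change of -0.04 over all cells (23 genes), against -0.05 for the 34 without it, and in stem-like cells the medians were -0.10 and -0.12. No gene of the related ribosomal, biogenesis, elongation, mitochondrial ribosomal, mTORC1 or p53 lists passed the genotype test over all cells, in stem-like or in cycling-like cells. Over all cells, 9 of 9 tested p53-axis genes lay above 0, with a median of 0.14, where 5647 of all 11061 genes lay above 0. Cdkn1a overlapped between control (162 and 102 CPM) and mutant cultures (159, 109 and 142 CPM).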

How the data were processed

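The deposited tables, 1 of hashtag counts and 1 of expected counts (estimated counts of RNA per gene and barcode), were not normalized by the authors as far as the files show; 95.6% of the RNA values above 0 are whole. Per the submitters' processing notes, the build was mm10 and the tools named, without their roles, were Salmon 1.4.0 with alevin, Seurat 4.3.0 and Cell Ranger 6.1.0. Hashtags were tied to cultures per the labels.

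Barcodes were assigned with HTODemux (Seurat 5.3.0, positive quantile 0.99); those with several hashtags were dropped, which does not remove doublets within a culture. Cells needed 500 genes and at most 25% mitochondrial counts. They were clustered in scanpy 1.11.5 without the members (2000 variable genes, 30 components, 15 neighbours, Leiden resolution 0.8). A class needed 3 or more markers, 2 of them among its top 10 genes; this naming rule was chosen after seeing the data. Counts were summed per culture and class, rounded, and tested with edgeR 4.0.16 (quasi-likelihood, TMM factors, filterByExpr, Benjamini-Hochberg, threshold 0.05) over all genes, with the culture as block between classes, since the classes of 1 culture share that culture. CPM are counts per 1000000 of the summed cells. DESeq2 1.42.0 and other settings were alternatives, and the fits were tested on simulated data. Precision is limited by 5 cultures.

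The members and lists were chosen with earlier results of these data known. The members named are the stalk, 5S-binding and ubiquitin-fusion genes, Rpsa, Rps6, Rpl10, Rpl41, paralogs with their parents, the 3 highest and lowest, up to 4 called falls and rises per class contrast, and 3 of smallest p per direction by genotype; of other lists, up to 4 of smallest p. Rps29, Rpl9, Rps9 and other examples beyond these, and Fau, Rack1 and Eif4ebp1 where outside them, were picked with their values in view. Some genes that this rule names are not reported here. The deposited tables have 0 columns of other samples.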

Additional observations from a re-analysis of the deposited data

Results flagged for a closer look

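Barcodes that entered no comparison also carried the family. Of the barcodes with no assigned hashtag, 1054 passed the filters on genes and mitochondrial counts. The median share of their counts in the members was 27.4% (5th to 95th percentile 9.06 to 35.4%), with a median depth of 5509 counts, against a median of 28.7% in the 1432 analysed cells. They belong to no culture, and no comparison was made with them. The 239 barcodes with several hashtags had a median of 29.6%, the 447 with over 25% mitochondrial counts 11.8% and the 237 with under 500 genes 24.0%.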

How the results depend on the processing

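No member passed the genotype test over all cells, in stem-like or in cycling-like cells under any alternative run; the other classes had no genotype test of their own. The median falls in enterocyte-like and enteroendocrine-like cells kept their direction in every alternative that gave a value (at a Leiden resolution of 0.5 no cluster was named enterocyte-like). The enterocyte-like median was -0.39 and the share difference -10.3 points with MULTIseqDemux, the median -0.81 with library totals, and -0.63 to -0.53 leaving out single cultures. The enteroendocrine-like median was -0.57 with library totals. For cycling-like cells, the members lower were 62 with MULTIseqDemux (median -0.15), 55 at resolution 0.5 and 58 with members kept in the clustering. They were 12 with DESeq2, 12 with no filter, 57 with library totals and 18 to 46 leaving out single cultures. In the same order, the lower among all genes were 1193 of 9028, 1304 of 9217, 1224 of 9242, 513 of 8615, 1200 of 13783, 1454 of 8615 and 976 to 1221. For goblet/Paneth-like cells the members lower were 19, 17, 3 and 24 at resolution 0.5, with members kept, DESeq2 and library totals. They were 1 to 16 leaving out single cultures. In the same order, the lower among all genes were 607 of 7023, 657 of 7329, 256 of 6994, 848 of 6994 and 317 to 467. Between enteroendocrine-like and enterocyte-like cells, library totals gave 0 lower (829 of all 4518 genes) and a reversed median of 0.31 (that of all genes moved from 0.11 to 0.62). DESeq2 gave 12 lower (1120 of 4518), MULTIseqDemux a median of -0.48, and single cultures left out 4 to 24 lower (1072 to 1370 of all genes). Library totals also moved the stem-like genotype median to -0.079. They moved the median of all genes from -0.18 to -0.36 in enterocyte-like and from -0.03 to -0.15 in goblet/Paneth-like cells. With whole values only, Rpl10 turned to 0.014 and Eif1 to -1.57 in cycling-like cells. Without the replicate block the members lower were 46 (median -0.14) in cycling-like, 75 (-0.59) in enterocyte-like, 9 (-0.09) in goblet/Paneth-like and 77 (-0.74) in enteroendocrine-like cells. None of these moved by over 1.5 times, though the rise of Rps27l in cycling-like cells was lost. In the same order, the lower among all genes were 1257 of 7690, 2069 of 5960, 552 of 5750 and 917 of 4917. Except where construction shows it, the cause was not tested. For 47 named genes, 4003 of 4230 values kept their side of the threshold, 134 lost and 91 gained a call and 2 reversed. Where a control is left out, the lone control is assumed to vary like the mutants. The library-total setting was added after seeing the data. Among the tested classes, the enteroendocrine-like class had the fewest cells (55, with 7 to 17 per culture), which limits its values.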

Other observations

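Within the enteroendocrine-like class, the share of counts in the members was set beside Neurog3, the transcription factor of enteroendocrine progenitors, after the values had been seen. In cells with a Neurog3 count the share was 22.8, 17.2, 28.2, 23.0 and 27.2% in control 1, control 2, mutant 1, mutant 2 and mutant 3, and in cells without one 18.2, 22.5, 12.2, 17.8 and 12.7%. It was higher with Neurog3 in 4 of 5 cultures, and control 2 went the other way. Groups are of few cells, and depth differed between them, so these are values with no test.

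Of the ribosomal pseudogenes, Rpl9-ps6 stood at 442.9 CPM in unnamed cluster 7, whose median cell held 1738 counts, and at 305.3 CPM in cluster 6. It stood at 143.6 CPM in enteroendocrine-like cells, where single cultures ran from 0.187 to 371 CPM, and at 122 CPM in tuft-like cells. The remaining clusters lay between 1.91 and 50.4 CPM. Rpl9-ps1 and Rpl36-ps4 had no count in any cluster.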
